A study of Mus musculus with 172 samples.

Results

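Tubulin isotypes are the products of separate genes for alpha- and beta-tubulin, and the 10 described here are 4 alpha genes (Tuba1a, Tuba1b, Tuba1c and Tuba4a) and 6 beta genes (Tubb2a, Tubb2b, Tubb3, Tubb4b, Tubb5 and Tubb6). They were taken by gene symbol from the 49671 genes counted in each cell, and together they held 781541 counts, or 0.287% of all counts. No threshold was applied, but the family was chosen by differences in its mRNA levels between these same 5 groups that were already known, so the folds and p-values below describe these samples and are no independent support. The cells are single cells of the inner cell mass (ICM) of mouse blastocysts, profiled by Smart-seq2, from Pou5f1 heterozygous parents on a mixed genetic background. Pou5f1 encodes OCT4, and each embryo was wild type (WT), heterozygous (HET) or OCT4-null (MUT). At E3.5 there were 58 cells of 7 WT/HET embryos (5 WT, 2 HET) and 29 cells of 4 MUT embryos. At E4.5 the study assigned the cells of 6 WT/HET embryos (2 WT, 4 HET) to epiblast (EPI, 37 cells) or primitive endoderm (PrE, 29 cells), and 19 cells came from 2 MUT embryos. ICMs had been freed of trophectoderm (TE) by immunosurgery and embryos genotyped from the lysed TE. Pou5f1 itself lay between 205 and 432 CPM (counts relative to the normalised library total) in E3.5 WT/HET embryos and between 2.76 and 5.96 CPM in E3.5 MUT embryos, and E4.5 MUT cells held 0 counts of it.

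Alpha- and beta-tubulin pair into the dimers from which microtubules are built, the filaments of the mitotic spindle, of intracellular transport and of cell shape. Mammals carry several genes for each subunit. Their products are nearly alike over the globular body and differ mostly in the acidic C-terminal tail, where motors, associated proteins and modifying enzymes bind. Cells use the genes in different mixes: Tuba1b, Tuba1c, Tubb5 and Tubb4b are broadly expressed, Tubb3 is the usual marker of neurons, and Tuba1a, Tubb2a and Tubb2b are prominent in the developing brain. Tubulin mRNAs are also under autoregulation, in which a surplus of free dimers leads to decay of tubulin mRNAs that are being translated, after TTC5 recognises the first residues of the nascent chain.

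The tails are shown because they carry most of the difference between isotypes. The last 60 coding bases before the stop codon (in capitals) were read from GENCODE M21 transcripts of GRCm38 and are printed for 6 of the 10 genes.
Tuba4a: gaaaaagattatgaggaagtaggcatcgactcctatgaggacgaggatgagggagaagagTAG
Tubb2a: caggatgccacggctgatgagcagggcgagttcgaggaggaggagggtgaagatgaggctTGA
Tubb2b: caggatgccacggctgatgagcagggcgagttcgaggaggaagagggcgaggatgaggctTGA
Tubb3: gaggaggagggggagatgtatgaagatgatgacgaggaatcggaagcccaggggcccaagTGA
Tubb4b: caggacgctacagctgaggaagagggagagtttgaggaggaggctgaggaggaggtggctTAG
Tubb5: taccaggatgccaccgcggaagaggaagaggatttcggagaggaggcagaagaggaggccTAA
Over these 60 bases Tubb2a and Tubb2b differed at 3. Tuba4a closed with the glutamate codon gag, and so lacks the tyrosine codon at the end of Tuba1a, Tuba1b and Tuba1c. The detyrosination cycle removes and restores the residue of that codon. At the other end, the first 12 coding bases were atgcgcgagtgc in Tuba4a and atgagggaaatc in Tubb5. They encode the short start, Met-Arg-Glu-Cys in alpha and Met-Arg-Glu-Ile in beta, that autoregulation reads.

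Promoters are shown for Tubb4b and Tubb5, the beta genes with the largest shares of the beta level in each group. They are the 250 bases before the RefSeq start (GRCm38.p6, minus strand), with CCAAT on the printed strand or its complement ATTGG in capitals.
Tubb4b, chr2:25224703-25224952: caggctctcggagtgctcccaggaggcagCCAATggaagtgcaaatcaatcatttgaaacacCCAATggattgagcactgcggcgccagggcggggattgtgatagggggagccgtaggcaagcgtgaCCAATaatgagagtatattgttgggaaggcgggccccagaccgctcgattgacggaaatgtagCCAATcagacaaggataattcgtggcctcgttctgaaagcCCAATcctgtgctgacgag
Tubb5, chr17:35838302-35838551: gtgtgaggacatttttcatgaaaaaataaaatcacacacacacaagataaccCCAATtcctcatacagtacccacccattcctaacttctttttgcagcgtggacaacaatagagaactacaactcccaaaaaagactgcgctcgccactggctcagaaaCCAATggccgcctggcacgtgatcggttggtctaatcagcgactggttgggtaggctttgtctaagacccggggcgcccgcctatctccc
Tubb4b held CCAAT 5 times and Tubb5 held it 2 times. Of 32851 promoters of this length 33.8% held it at least once on either strand, 10.1% at least 2 times and 0.213% at least 5 times. RefSeq had entries for 8 of the 10 genes, and Tuba1a, Tuba1c and Tubb3 held 1 match each. The octamer ATGCAAAT, searched on both strands and found in 1.60% of all promoters, was in 0 of the 8. A match is a description of the letters only.

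The genes lie on 7 chromosomes of GRCm38. The annotation places Tuba1a (ENSMUSG00000072235) at chr15:98949837-98953703 on the minus strand, Tuba1b (ENSMUSG00000023004) at chr15:98931425-98934565 on the minus strand and Tuba1c (ENSMUSG00000043091) at chr15:99029891-99038110 on the plus strand. It gives Tuba4a (ENSMUSG00000026202) at chr1:75214228-75219865 on the minus strand. The beta genes are Tubb2a (ENSMUSG00000058672) at chr13:34074274-34078007 on the minus strand and Tubb2b (ENSMUSG00000045136) at chr13:34126748-34130466 on the minus strand, Tubb3 (ENSMUSG00000062380) at chr8:123411424-123422015 on the plus strand, Tubb4b (ENSMUSG00000036752) at chr2:25222160-25224702 on the minus strand, Tubb5 (ENSMUSG00000001525) at chr17:35833921-35838306 on the minus strand and Tubb6 (ENSMUSG00000001473) at chr18:67390717-67402749 on the plus strand. Tuba4a overlaps Stk16 and Tubb4b overlaps Fam166a, each on the other strand, and the source used here gives no strand setting for the counting. Reads of such a pair cannot be told apart there. Coding sequences were 98.3% identical between Tuba1a and Tuba1b, 97.9% between Tuba1b and Tuba1c and 96.5% between Tubb2a and Tubb2b. A read pair that aligned to more than 1 place was in none of the counts. The share of 125-base windows (the read length) of the mRNA that also occur in another gene was 60.3% for Tuba1b, 50.1% for Tuba1c, 44.3% for Tuba1a, 31.5% for Tubb2a, 23.2% for Tubb2b and 21.7% for Tubb4b, and 0% for Tuba4a, Tubb3, Tubb5 and Tubb6. Levels of the first group may therefore be undercounted to different degrees, which weighs on comparisons between genes. The overlaps with Stk16 and Fam166a are not part of these shares or of lengths built on them. Tuba4a and Tubb4b may also be undercounted through those overlaps.

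Counts of the cells of an embryo were summed, at E4.5 separately for EPI and PrE, which gave 25 sums of 2736296 to 17453036 counts, and the embryo was the replicate. Totals per cell ran from 363819 to 4644070. E3.5 and E4.5 cells were on different plates, so stage and plate cannot be told apart. Read pairs with more than 1 alignment made up a median of 38.8% in E3.5 WT/HET and 41.1% in E3.5 MUT cells. They made up 24.9% in EPI, 19.7% in PrE and 21.96% in E4.5 MUT cells. Pairs ambiguous between genes had medians of 6.33%, 5.62%, 11.7%, 13.6% and 10.8% in the same order of groups. Neither kind is in the counts, and the part of these differences in the stage comparisons was not tested. In EPI and PrE sums the 9 EPI and 10 PrE markers went with their labels, each called in the direction of its name. The study set these labels from the same transcriptomes, so this is no independent check of them. A list of 13 TE markers summed to 203 to 1048 CPM in E3.5 WT/HET, 1292 to 2288 in E3.5 MUT, 157.4 to 424 in EPI, 892 to 1797 in PrE and 9101 to 10291 CPM in E4.5 MUT embryos. A sum alone does not tell fewer cells with a transcript from less of it per cell, and counts in single cells are given further below. Levels below are CPM on a scale normalised over all 25 sums, and CPM per kb of exon where genes are compared with each other.

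**Figure D1:**
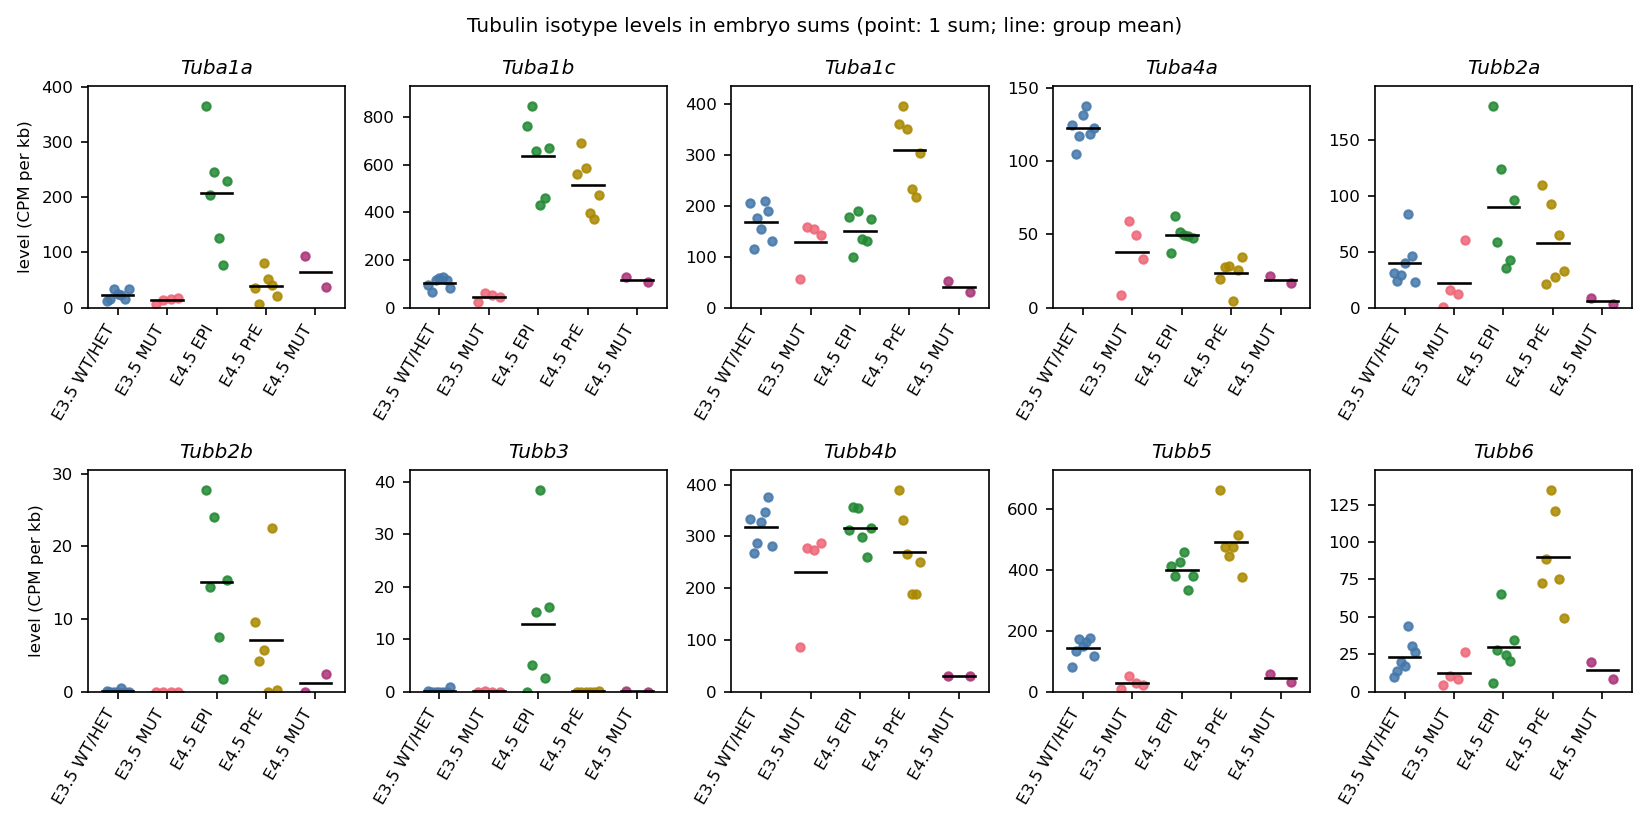
Level of each tubulin gene (CPM per kb, linear axis from 0 with its own range in each panel) in the 5 groups, with 1 point per embryo sum and a line at the group mean. Tuba1b and Tubb5 sit highest in EPI and PrE sums, and the 2 E4.5 MUT sums of Tubb4b lie below every other sum.

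In the E3.5 ICM with OCT4, Tubb4b was the most abundant tubulin mRNA measured per length, at 317 ± 39.4 CPM per kb (SD, n = 7). Tuba1c (168.9 ± 36.6), Tubb5 (141.9 ± 34.2), Tuba4a (122.2 ± 10.5) and Tuba1b (104.1 ± 23.7 CPM per kb) followed, and neighbours in that order differed by less than the larger of their SDs. Tubb2a (39.6 ± 21.3), Tubb6 (23.1 ± 11.6) and Tuba1a (22.3 ± 8.70 CPM per kb) were lower and again within their spread of each other. Tubb2b and Tubb3 were near 0, with 18 and 16 counts over all 7 embryos and 5 of 7 sums at 0 for each. Tuba1c supplied 40.2 ± 4.24% of the alpha level and Tuba4a 29.6 ± 3.24%, while Tubb4b supplied 61.2 ± 6.01% of the beta level and Tubb5 27.1 ± 4.94%.

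Loss of OCT4 at E3.5 went with less mRNA of Tubb5, Tuba4a and Tuba1b, and Tubb4b and Tuba1c were not called. This comparison asks what OCT4 does in the ICM before EPI and PrE segregate. Tubb5 encodes a beta isotype found in most dividing cells. It stood at 31.7, 175.05, 93.3 and 69.6 CPM in MUT embryos 10, 12, 17 and 19 (the study's embryo numbers), and from 271 to 589 CPM with a median of 495 in the 7 WT/HET embryos. Every MUT embryo lay below every control, and the level fell 5.05-fold (log2 fold change -2.33 ± 0.39 SE, adjusted p = 0.00519, edgeR). Tuba4a, the alpha isotype without the terminal tyrosine codon, stood at 32.1, 219, 184.03 and 122.2 CPM in the same MUT embryos, against 388 to 508 CPM and a control median of 453. The groups did not overlap and it fell 3.21-fold (log2 fold change -1.68 ± 0.37 SE, adjusted p = 0.0188). Tuba1b, the broadly expressed alpha isotype, had 44.9, 113.1, 101.4 and 81.8 CPM in MUT and ran from 120.97 to 239 CPM with a median of 217 in controls. Its fall of 2.25-fold was called too (log2 fold change -1.17 ± 0.26 SE, adjusted p = 0.0185), with all MUT embryos below all controls.

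Tubb4b, a beta isotype of many tissues that is also used in cilia, was 180.7, 579, 569.7 and 598 CPM in MUT and from 561 to 785 CPM with a median of 684 in WT/HET embryos. MUT embryo 10 stood far below the other MUT embryos, which overlapped the controls, so no call was made (log2 fold change -0.44, adjusted p = 0.368). Tuba1c gave 129.9, 363, 355 and 325 CPM in MUT against 262 to 479 in controls, again with embryo 10 apart (-0.38, adjusted p = 0.451). For Tuba1a, Tubb2a and Tubb6 the log2 fold changes were -0.71, -0.79 and -0.86 with adjusted p of 0.290, 0.599 and 0.349, none of them called. In simulated data this design missed most of the smaller changes, so a gene that was not called may still differ. In Tubb2a the MUT embryos ran from 1.02 to 97.6 CPM. Embryo 10 was the lowest MUT embryo for each of the 8 genes tested. Tubb2b had 0 counts and Tubb3 2 counts in MUT embryos, and neither passed the filter on low counts. Of the 8 genes tested 3 were called, all lower. Of all genes tested 6.18% were called, 3.20% higher and 2.98% lower. The median log2 fold change of the 8 was -0.83, beside -0.02 over all genes tested.

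The 3 calls held with each of the 11 embryos left out, with adjusted p of at most 0.0457 for Tuba1b, 0.0499 for Tuba4a and 0.0172 for Tubb5. With the 5 WT embryos as the only controls Tubb5 was called, and Tuba1b and Tuba4a were not (adjusted p = 0.0666 and 0.0567). That fit called 435 of 11609 genes, against 746 of 12075 with all controls. With cells weighted equally the log2 fold change of Tuba4a was -2.33. TE markers were higher in the same MUT embryos (4 of 10 tested called higher, 0 lower), and of the EPI markers 5 of 9 were called lower. PrE markers summed to 377 to 610.3 CPM in MUT against 97.99 to 311 CPM in WT/HET, with 2 of 7 tested called higher, Dab2 (2.68, adjusted p = 0.00661) and Col4a1 (2.10, adjusted p = 0.00268). Of the mitosis genes 2 of 20 were called higher, Kif23 (0.84, adjusted p = 0.0318) and Ube2c (0.56, adjusted p = 0.0494). The part of these lists in the tubulin levels was not tested. The mitosis sums overlapped between the groups, at 3200.1 to 6195 CPM in MUT and 3424 to 4507 CPM in the controls.

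**Figure D2:**
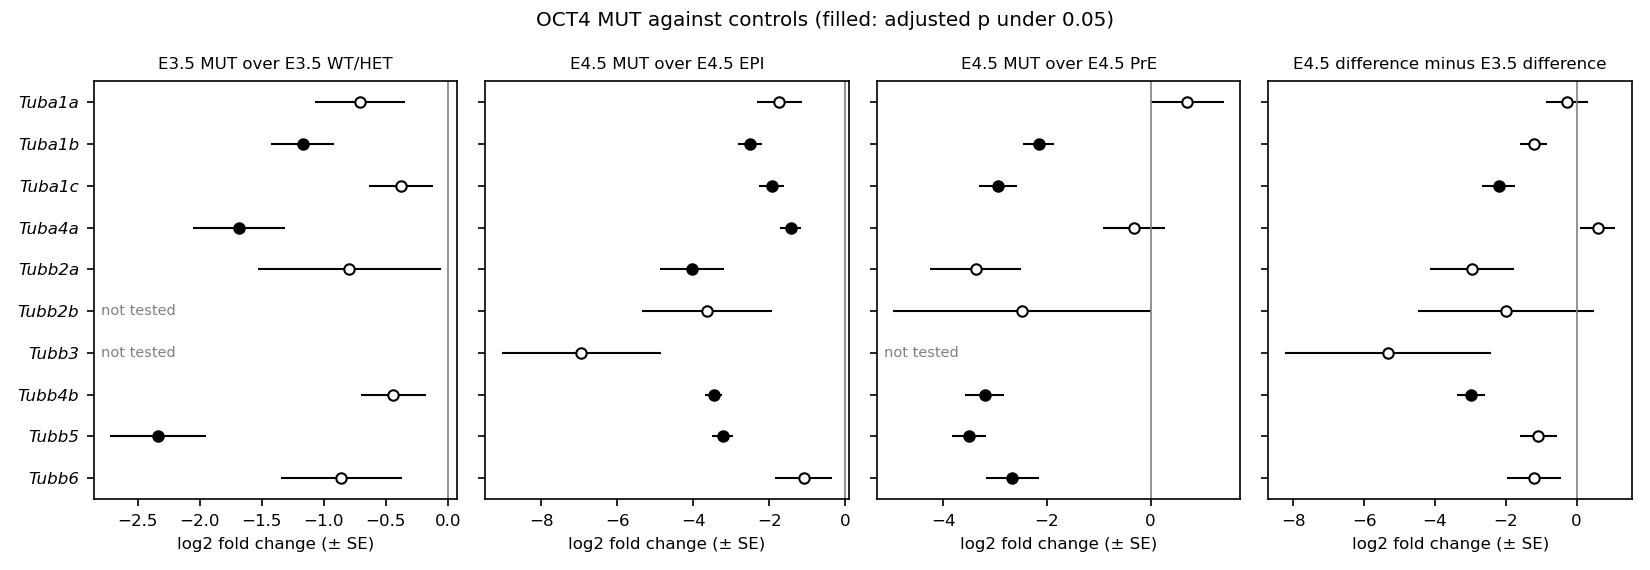
Log2 fold change of each tubulin gene in E3.5 MUT against WT/HET, in E4.5 MUT against EPI and against PrE, and the E4.5 difference minus the E3.5 difference, with bars of 1 SE and axes that differ between panels. Filled points were called by edgeR (adjusted p under 0.05) and open ones were not. At E3.5 Tubb5, Tuba4a and Tuba1b were called lower, and at E4.5 Tubb4b and Tubb5 were lower against both EPI and PrE. Fitted values of Tubb2b and Tubb3, with sums at 0, depend on the prior count.

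From the E3.5 ICM to both E4.5 lineages Tuba1b and Tubb5 rose and Tuba4a fell. Tuba1b ran from 808 to 1585 CPM with a median of 1242 in EPI and from 693 to 1294 CPM with a median of 969 in PrE, and every E4.5 sum lay above the highest E3.5 WT/HET embryo (239 CPM). It rose 6.22-fold in EPI (log2 fold change 2.64 ± 0.20 SE, adjusted p = 2.53e-07) and 4.93-fold in PrE (log2 fold change 2.30 ± 0.19 SE, adjusted p = 4.92e-07). Tubb5 ran from 1117 to 1524 CPM with a median of 1321 in EPI and from 1255 to 2206 CPM with a median of 1586 in PrE, again above every E3.5 embryo. Its rise was 2.86-fold in EPI (log2 fold change 1.51 ± 0.16 SE, adjusted p = 5.49e-06) and 3.47-fold in PrE (log2 fold change 1.80 ± 0.18 SE, adjusted p = 2.70e-06). Tuba4a went the other way, to 136.8 to 231 CPM in EPI and 17.2 to 127.4 CPM in PrE. It fell 2.43-fold in EPI (log2 fold change -1.28 ± 0.12 SE, adjusted p = 2.10e-06) and 5.23-fold in PrE (log2 fold change -2.39 ± 0.32 SE, adjusted p = 5.03e-05). Both comparisons use the same E3.5 embryos. Controls were mostly WT at E3.5 and mostly HET at E4.5, so genotype and stage are partly mixed in these folds. HET sums of Tuba1b ran from 1228 to 1585 CPM in EPI and 885 to 1294 CPM in PrE. WT sums were 808 and 861 CPM in EPI and 748 and 693 CPM in PrE. HET sums also lay above WT sums for Tuba1a, Tubb2a, Tubb2b and Tubb4b in EPI and for Tuba1c and Tubb4b in PrE. Those of Tubb5 and Tuba4a overlapped in both lineages.

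Tubb4b was close to level over this step, with 544 to 746 CPM in EPI and 393 to 813 CPM in PrE, overlapping E3.5. Its log2 fold changes were 0.02 ± 0.11 SE in EPI and -0.23 ± 0.17 SE in PrE, adjusted p = 0.924 and 0.346. Against WT embryos alone the PrE difference was called at -0.71, adjusted p = 0.0146. Tuba1a rose 9.43-fold in EPI (log2 fold change 3.24 ± 0.35 SE, adjusted p = 8.22e-06), where it ran from 137.9 to 659 CPM with a median of 391, and was not called in PrE (adjusted p = 0.182, and 0.0403 without embryo 2). With WT embryos alone its rise in EPI was 2.06 on the log2 scale. Tuba1c rose 1.84-fold in PrE (log2 fold change 0.88 ± 0.18 SE, adjusted p = 0.00153) and Tubb6, a widely expressed beta isotype, 3.90-fold (log2 fold change 1.96 ± 0.33 SE, adjusted p = 0.000277), and neither was called in EPI (adjusted p = 0.615 and 0.541). Without HET embryos the rise of Tuba1c in PrE was not called (adjusted p = 0.163).

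Of the genes linked to the developing nervous system, 3 others were called in EPI. Tubb2a rose 2.30-fold (log2 fold change 1.20 ± 0.39 SE, adjusted p = 0.0295), but 7 of the 13 fits with 1 embryo left out lost that call, with adjusted p of 0.0525 to 0.0908 without EPI embryo 1, 4 or 7 or E3.5 embryo 9, 11, 13 or 18. It was also lost with all 5 groups in 1 fit (adjusted p = 0.143), with cells weighted equally (limma-trend, adjusted p = 0.249) and with WT embryos alone (log2 fold change 0.37, adjusted p = 0.360). Tubb2b had 63.6, 32.96, 55.1, 17.3, 3.92 and 35.3 CPM in EPI of embryos 1, 2, 4, 5, 6 and 7, against at most 0.998 CPM at E3.5 (adjusted p = 0.000179). Tubb3 was 0, 9.53, 28.5, 71.8, 4.72 and 30.1 CPM in the same EPI sums, or 2032 counts in all, against 16 counts at E3.5 (adjusted p = 0.00472). It had 0 counts in the EPI of embryo 1 and was highest in embryo 5. With most E3.5 sums at 0 no fold is given for either. In PrE, Tubb3 had 1 count in 6 sums and neither gene was tested. In EPI 7 of 10 genes were called, 6 higher and 1 lower, where 31.9% of all genes tested were called, 15.5% higher and 16.4% lower. In PrE 5 of the 8 tested were called, 4 higher and 1 lower, where the share over all genes was 31.7%, 14.8% higher and 16.9% lower.

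**Figure D3:**
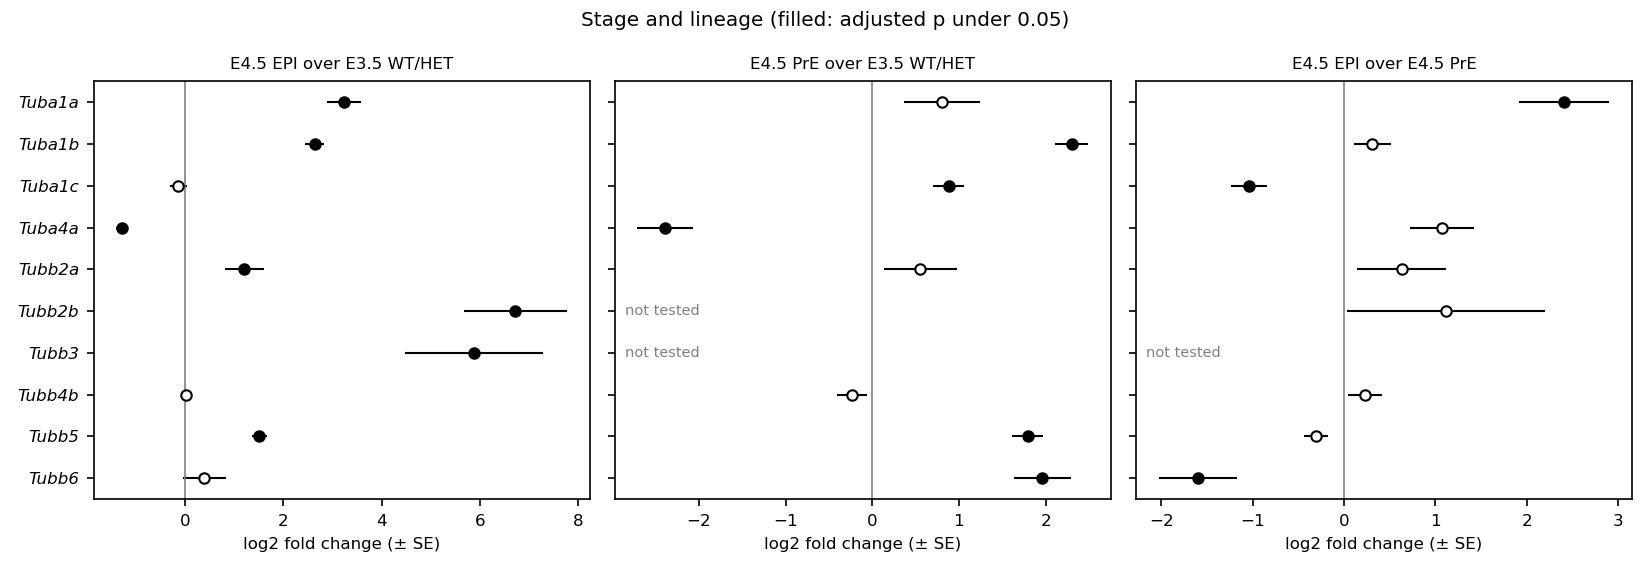
Log2 fold change of each tubulin gene in EPI against E3.5 WT/HET, PrE against E3.5 WT/HET and EPI against PrE sums, with bars of 1 SE and axes that differ between panels. Filled points were called (adjusted p under 0.05). Tuba1b and Tubb5 were called higher and Tuba4a lower than at E3.5 in both lineages, with Tubb4b near 0. Fitted values of Tubb2b and Tubb3 against E3.5, where most sums were at 0, depend on the prior count.

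Between the 2 E4.5 lineages of the same 6 embryos, Tuba1a was higher in EPI, and Tuba1c and Tubb6 were higher in PrE. The study assigned cells to EPI or PrE from their transcriptomes, so these p-values are not independent of the labels. Tuba1a was 659, 369, 443, 226, 137.9 and 414 CPM in EPI and 64.8, 12.9, 144.8, 92.4, 73.9 and 36.4 CPM in PrE of embryos 1, 2, 4, 5, 6 and 7. EPI was the higher of the pair in 6 of 6 embryos, 5.32-fold in the fit (log2 fold change 2.41 ± 0.50 SE, adjusted p = 0.00591). Tuba1c was 409, 229, 435, 309, 298 and 399 CPM in EPI and 828, 907, 803, 536, 499.5 and 694 CPM in PrE, and no EPI sum reached the lowest PrE sum (2.06-fold lower in EPI, log2 fold change -1.04 ± 0.20 SE, adjusted p = 0.00335). Tubb6 ran from 13.9 to 158.997 CPM with a median of 63.97 in EPI and from 120.3 to 328 CPM with a median of 199.4 in PrE (3.04-fold lower in EPI, log2 fold change -1.60 ± 0.43 SE, adjusted p = 0.0284). It was higher in PrE in 6 of 6 embryos although the groups overlapped, and the call was lost without embryo 2, 5 or 6 (adjusted p = 0.0933, 0.107 and 0.0693). Tuba4a was not called (log2 fold change 1.08, adjusted p = 0.0705) but was without embryo 5 (adjusted p = 0.0282). It was higher in EPI in 6 of 6 embryos, at 136.8 to 231 CPM in EPI and 17.2 to 127.4 CPM in PrE with no overlap. Tubb3 did not pass the filter on low counts here, at 0 to 71.8 CPM in EPI and at most 0.133 CPM in PrE. Calls were made for 3 of the 9 genes tested, with 1 higher and 2 lower in EPI, beside 9.81% of all genes tested, 4.61% higher and 5.20% lower. In simulated data of this design most of the smaller changes and many of the larger ones were missed, so a gene not called may still differ. With the 2 WT embryos alone edgeR called 3 of 10415 genes and 0 of the 10 isotype genes tested (5 had an unadjusted p under 0.05). Tuba1a was at a log2 fold change of 1.15 there.

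In E4.5 MUT cells Tubb4b, Tubb5, Tuba1b and Tuba1c were lower than in EPI and than in PrE. This comparison asks what ICM cells without OCT4 have become once both lineages exist. Tubb4b was 62.4 and 61.004 CPM in MUT embryos 3 and 8, with 544 to 746 CPM in EPI and 393 to 813 CPM in PrE. It fell 11.05-fold against EPI (log2 fold change -3.47 ± 0.22 SE, adjusted p = 5.63e-05) and 9.22-fold against PrE (log2 fold change -3.20 ± 0.38 SE, adjusted p = 0.00181). Tubb5 was 191.5 and 101.5 CPM in MUT, below the lowest EPI sum of 1117 and the lowest PrE sum of 1255 CPM. Its fall was 9.40-fold against EPI (log2 fold change -3.23 ± 0.28 SE, adjusted p = 0.000331) and 11.4-fold against PrE (log2 fold change -3.50 ± 0.34 SE, adjusted p = 0.000512). Both genes were called in every fit that left out 1 embryo.

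Of the alpha genes, Tuba1b stood at 237 and 200.02 CPM in MUT embryos 3 and 8. It fell 5.67-fold against EPI (log2 fold change -2.50 ± 0.32 SE, adjusted p = 0.00220) and 4.46-fold against PrE (log2 fold change -2.16 ± 0.30 SE, adjusted p = 0.00472). Tuba1c, at 118.9 and 68.02 CPM, fell 3.85-fold against EPI (log2 fold change -1.94 ± 0.34 SE, adjusted p = 0.0120) and 7.72-fold against PrE (log2 fold change -2.95 ± 0.36 SE, adjusted p = 0.00235), the EPI call being lost without embryo 8 (adjusted p = 0.104). Tuba4a was 78.7 and 61.2 CPM and was called against EPI (log2 fold change -1.44 ± 0.28 SE, adjusted p = 0.0189), though not without embryo 3 or 8 (adjusted p = 0.0956 and 0.146) or with all 5 groups in 1 fit (adjusted p = 0.0903), and not against PrE (adjusted p = 0.889). Tuba1a was 167.5 CPM in embryo 3 and 67.4 CPM in embryo 8, with log2 fold changes of -1.74 against EPI and 0.71 against PrE that were not called (adjusted p = 0.134 and 0.730).

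Among the lower beta genes, Tubb2a was 13.4 and 4.51 CPM in MUT and was called against EPI (log2 fold change -4.04 ± 0.84 SE, adjusted p = 0.0259). That call was lost without MUT embryo 3 or 8 or EPI embryo 7 (adjusted p = 0.0910, 0.167 and 0.0553), and without embryo 3 its log2 fold change was -4.98. Against PrE it was -3.37, adjusted p = 0.0692. Tubb6, at 48.8 and 21.03 CPM, was called against PrE (log2 fold change -2.67 ± 0.51 SE, adjusted p = 0.0204), not without embryo 3 (log2 fold change -3.31, adjusted p = 0.0522) or 8 (adjusted p = 0.136), and was not called against EPI (adjusted p = 0.478). Tubb2b was 0 and 5.40 CPM and Tubb3 had 1 count in both MUT embryos together, and neither was called against EPI (adjusted p = 0.290 and 0.0860), though Tubb3 was without embryo 1, where its EPI sum was 0 (adjusted p = 0.0251). In all, 6 of 10 tested genes were called lower against EPI and 5 of 9 against PrE, with 0 higher. Against EPI 4.92% of all genes tested were called, 2.30% higher and 2.62% lower, and against PrE 3.81%, 1.74% higher and 2.07% lower. Median log2 fold changes were -2.87 and -2.67, beside -0.03 and 0.05 over all genes tested.

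These calls rest on 2 MUT embryos. In simulated data of the comparison with EPI the share of false calls was larger than the threshold names. The smaller changes and most of the larger ones were missed there, so a gene that was not called may still differ. With the 2 WT embryos as the only controls edgeR called 48 of 11644 genes against EPI and 27 of 10667 against PrE. Of the isotypes described here it called Tubb4b alone against EPI and 0 of 9 against PrE. In the latter 6 of 9 had an unadjusted p under 0.05, and the 5 genes called with all controls had adjusted p of 0.0726 (Tubb5) to 0.175 (Tubb6). With each cell weighted equally (limma-trend) the log2 fold changes were further from 0, at -5.35 for Tubb4b, -5.55 for Tubb5, -3.02 for Tuba1c, -3.37 for Tuba4a and -5.12 for Tubb2a against EPI. Against PrE they were -4.97 for Tubb4b, -5.80 for Tubb5, -3.99 for Tuba1c and -4.85 for Tubb6. This weighting also moved the median of all genes, to -0.20 against EPI and -0.24 against PrE. Marker lists differed as well. TE markers summed to 9101 to 10291 CPM in MUT, above every EPI and PrE sum, PrE markers to 1195 to 1867 CPM against 5352 to 9818 in PrE, and EPI markers to 619 to 1398 CPM against 2513 to 4749.8 in EPI. MUT sums of EPI markers exceeded the 294 to 446 CPM of PrE. Those of PrE markers exceeded the 289 to 543 CPM of EPI. Against PrE 1 of 9 EPI markers was called higher, Nanog (8.61, adjusted p = 0.00877), and 2 lower. Against EPI 2 of 9 PrE markers tested were called higher, Col4a1 (5.12, adjusted p = 0.0424) and Lama1 (5.12, adjusted p = 0.0491), and 0 lower. Gdf3, Sox7 and Foxa2 were at 0 in MUT. The 20 mitosis genes summed to 1087 to 2100.1 CPM in MUT, against 3241 to 4249.8 in EPI and 3092 to 5973 in PrE, and 5 of 20 were called lower against EPI, Ccnb2 (-2.14, adjusted p = 0.0153) and Birc5 (-0.92, adjusted p = 0.0328) among them. The part of these differences in the tubulin levels was not tested.

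Whether loss of OCT4 acted differently at the 2 stages was asked of whole embryos, EPI and PrE cells together at E4.5, through the interaction term of genotype and stage. Tubb4b (log2 fold change -2.99 ± 0.40 SE, adjusted p = 0.000215) and Tuba1c (log2 fold change -2.20 ± 0.46 SE, adjusted p = 0.00794) had a more negative MUT difference at E4.5 than at E3.5. They are 2 of 10 tested genes. Of all genes tested 5.46% were called, 2.71% more positive and 2.75% more negative at E4.5. For Tubb5, Tuba1b and Tuba4a, lower in MUT at E3.5, the difference between stages was -1.08 ± 0.52, -1.21 ± 0.38 and 0.60 ± 0.50 SE and was not called (adjusted p = 0.249, 0.0708 and 0.546). Without MUT embryo 8, and with WT controls alone, Tuba1c was not called (adjusted p = 0.0692 and 0.0975). MUT embryo 10 was the lowest of the E3.5 MUT embryos for every isotype tested at that stage. Without it Tuba1b and Tubb2a were called as well (adjusted p = 0.0168 and 0.0448). In this contrast 9 of 20 mitosis genes were called more negative, Aurka (-1.68, adjusted p = 0.00288) and Birc5 (-1.14, adjusted p = 0.00349) among them, 3 of 10 PrE markers more negative and 6 of 13 TE markers more positive, and their part in the tubulin values was not tested. Stage and plate are the same split here, for MUT and control cells alike.

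Added up per length, the 10 genes gave 939.7 ± 137.004 CPM per kb in E3.5 WT/HET (SD, n = 7), 518 ± 215 in E3.5 MUT (n = 4), 1909 ± 347 in EPI, 1804 ± 319 in PrE (n = 6 each) and 336 ± 102.3 in E4.5 MUT embryos (n = 2). The summed level was 1.81-fold lower in MUT at E3.5, and at E4.5 5.68-fold lower than in EPI and 5.37-fold lower than in PrE, with no overlap between sums. These sums are descriptions without a test. Beta over alpha was 1.26 in E3.5 WT/HET and 1.28 in E3.5 MUT, 0.856 in EPI, 1.06 in PrE and 0.386 and 0.396 in the E4.5 MUT embryos, which lay below every EPI and PrE sum. As part of the Tuba1a, Tuba1b and Tuba1c windows is shared with other genes, the ratio is of countable mRNA, not of protein.

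The isotype mix, the share of each gene in the summed alpha or beta level of a sum, is described here by means over sums. Tubb4b made up 61.2 ± 6.01% of beta in E3.5 WT/HET and 80.3 ± 6.21% in E3.5 MUT, and Tubb5 made up 27.1 ± 4.94% and 9.56 ± 3.92%. The Tubb5 share ran 5.30 to 14.8% in MUT and 17.9 to 34.01% in WT/HET embryos. The Tubb4b share overlapped, at 72.6 to 85.7% in MUT and 54.4 to 73.1% in WT/HET embryos. The Tubb4b level itself was not called between them (log2 fold change -0.44). At E4.5 Tubb5 led the beta pool with 46.6 ± 4.31% in EPI, 53.9 ± 4.54% in PrE and 45.6 ± 5.79% in MUT, and Tubb4b followed with 36.9 ± 3.40%, 29.3 ± 5.997% and 32.8 ± 9.86%. The lead of Tubb5 in EPI depended on the length used. With the length of windows found in no other gene, Tubb4b was 43.6% and Tubb5 40.1%. Tubb6 took 10.02 ± 3.74% in PrE and 14.5 ± 3.93% in E4.5 MUT, against 3.40 ± 1.90% in EPI, with both MUT embryos above every EPI sum.

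In the alpha pool Tuba1c made up 40.2 ± 4.24% in E3.5 WT/HET, 15.04 ± 3.79% in EPI and 34.96 ± 1.57% in PrE. Tuba4a made up 29.6 ± 3.24%, 5.03 ± 1.55% and 2.66 ± 1.29% in the same groups, and Tuba1b 24.7 ± 2.78%, 60.99 ± 5.05% and 57.7 ± 1.99%. The Tuba1b share of every E4.5 sum lay above that of every E3.5 sum. In E3.5 MUT embryos Tuba1c made up 57.6 ± 2.65% and Tuba4a 15.3 ± 4.93%. Tuba1a made up 18.9 ± 5.53% in EPI and 25.7 ± 8.56% in E4.5 MUT embryos, with 4.69 ± 2.88% in PrE and 5.44 ± 2.24% at E3.5. In E4.5 MUT embryos Tuba1b made up 49.6 ± 9.06%, below every EPI sum and, by a narrow margin, every PrE sum (highest MUT share 56.05%, lowest PrE share 56.06%). Tuba4a made up 7.98 ± 1.01%, above every EPI and PrE sum, and Tuba1c 16.7 ± 1.51%, which overlapped EPI and lay below every PrE sum. The Tuba1a share of E4.5 MUT overlapped EPI and lay above every PrE sum. With windows found in no other gene Tuba1b was 32.4% and Tuba4a 18.2% in E3.5 WT/HET embryos, which puts Tuba1b above Tuba4a there. No test was made on the shares.

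**Figure D4:**
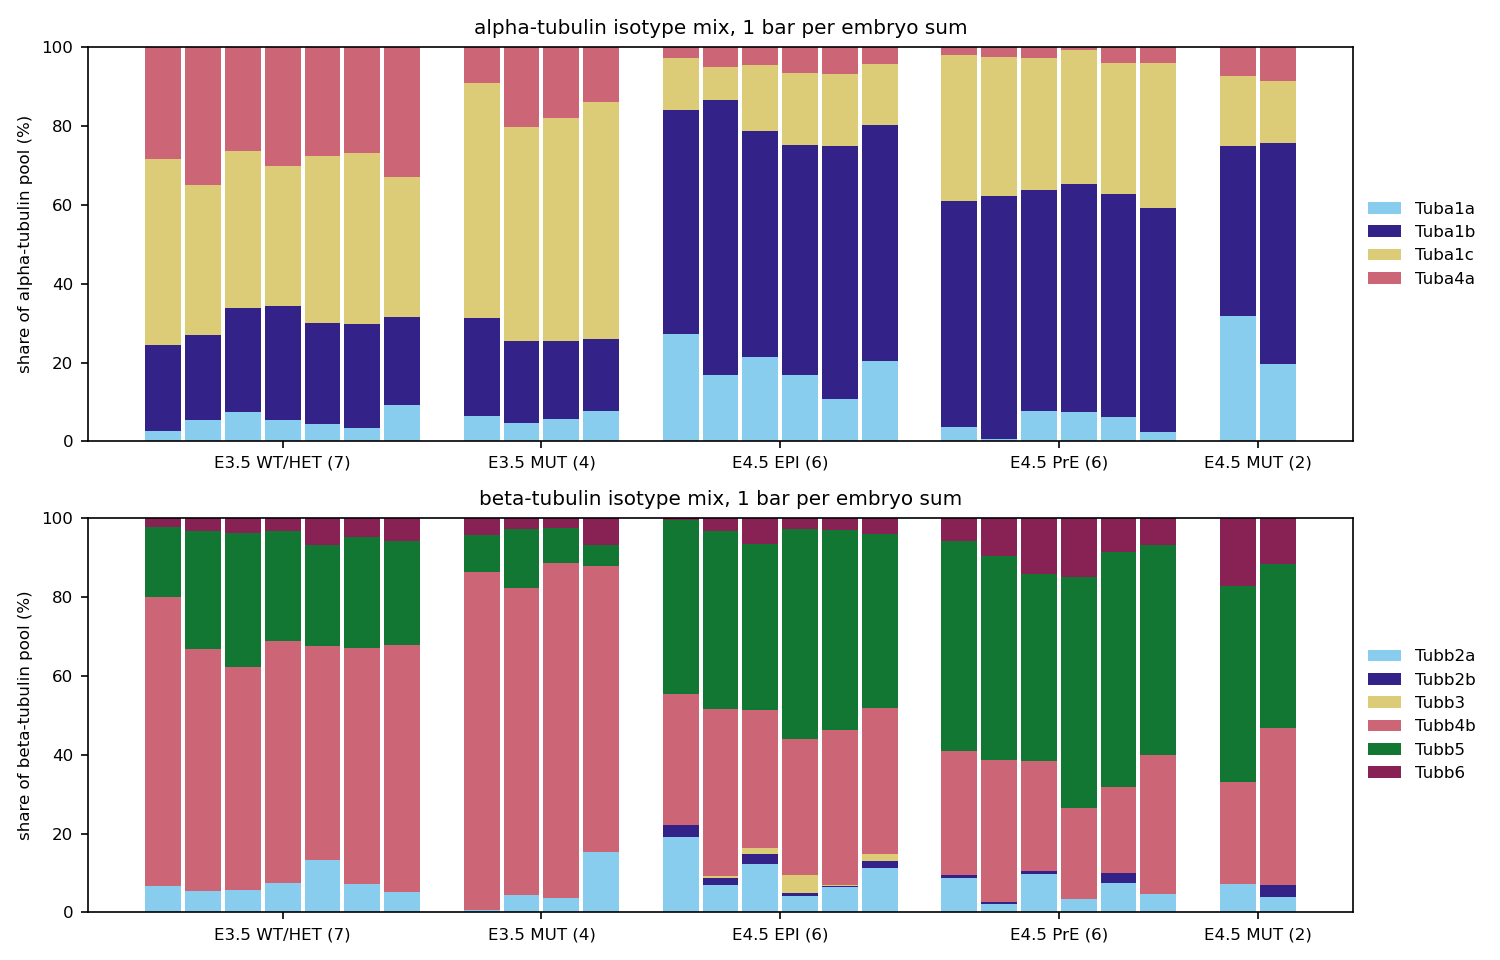
Isotype mix of the alpha genes (upper) and of the beta genes (lower) as stacked shares (percent of summed CPM per kb), with 1 bar per embryo sum in the 5 groups. Tuba1b holds the largest alpha share in the 3 E4.5 groups, and Tubb4b makes up a mean of 80.3% of the beta level in E3.5 MUT embryos.

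The order was also counted in single cells, from the same counts and exon lengths. The dependence of the Tubb5 lead in EPI on the length used therefore applies here too. Tuba1c was the leading alpha gene per length in 50 of 58 E3.5 WT/HET and 29 of 29 E3.5 MUT cells, and Tuba1b in 37 of 37 EPI, 27 of 29 PrE and 13 of 19 E4.5 MUT cells. Tubb4b led the beta genes in 56 of 58 E3.5 WT/HET, 29 of 29 E3.5 MUT, 12 of 37 EPI and 3 of 29 PrE cells. Tubb5 stood above Tubb4b in 2 of 58, 0 of 29, 25 of 37 and 26 of 29 cells of these groups. In E4.5 MUT, Tubb5 led in 10 and Tubb4b in 6 of 18 cells, and 1 further cell had no beta count. Cells of an embryo are not independent, so these are counts and not tests.

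The median number of beta genes with at least 1 count was 4 of 6 in E3.5 WT/HET, E3.5 MUT and PrE cells, 5 in EPI and 2 in E4.5 MUT cells, and thinning every cell to 363819 counts left these medians as they were. Tubb4b was found in 13 of 19 E4.5 MUT cells (54.5 to 87.5% of the cells of an embryo) and Tubb5 in 14 of 19, whereas Tuba1b was found in 19 of 19. Tubb4b was found in 37 of 37 EPI and 29 of 29 PrE cells. Tubb3 was detected in 16 of 37 EPI cells (0 to 75% by embryo) and in 2 of 58 E3.5 WT/HET, 1 of 29 E3.5 MUT, 1 of 29 PrE and 1 of 19 E4.5 MUT cells. Tubb2b was detected in 24 of 37 EPI (28.6 to 100% by embryo) and 10 of 29 PrE cells, in 2 of 58 E3.5 WT/HET cells, and in 0 of 29 E3.5 MUT cells, which would allow a share of cells with a count of up to 10.3% if the 29 cells of 4 embryos were independent. Reads were PCR copies without molecular identifiers, and this limit covers counting error only.

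**Figure D5:**
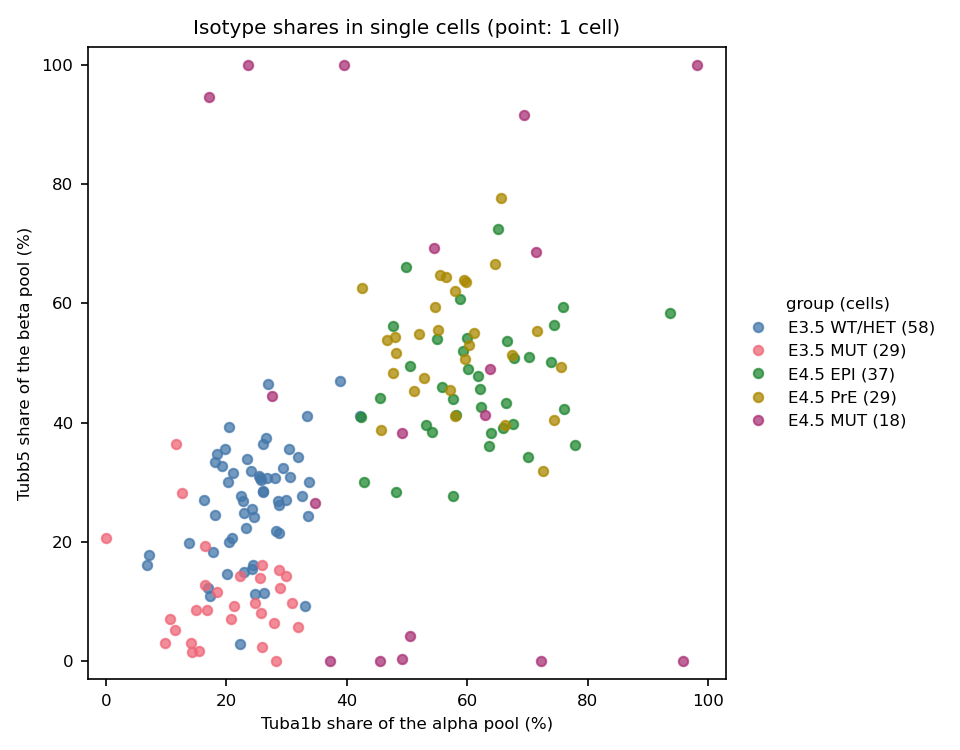
Share of Tuba1b in the alpha level (x axis, percent) against the share of Tubb5 in the beta level (y axis, percent) of single cells, 1 point per cell, coloured by the 5 groups. Median Tuba1b shares are 24.5% in E3.5 WT/HET and 61.8% in EPI cells, and median Tubb5 shares 27.3% in E3.5 WT/HET, 9.25% in E3.5 MUT and 53.9% in PrE cells.

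Genes that fold, nucleate, sever or modify tubulin were followed as lists written by hand. Of the folding genes (prefoldin, the CCT chaperonin and the tubulin cofactors), 5 of 21 tested were called lower and 0 higher in E4.5 MUT against EPI, where 2.62% of all genes tested were lower. Among them were the chaperonin subunits Cct2 (log2 fold change -1.32, adjusted p = 0.00505) and Tcp1 (-0.90, adjusted p = 0.0210). Against PrE 1 of 21 was called lower, Cct2 (-1.08, adjusted p = 0.0417), and in E3.5 MUT edgeR called 0 of 20 (3 with an unadjusted p under 0.05), where DESeq2 called 3. EPI against E3.5 gave 9 higher and 1 lower of 20 (all genes 15.5% and 16.4%), with Pfdn1, a prefoldin subunit, at 1.22, adjusted p = 1.68e-06 and Tbcb, a tubulin cofactor, at 1.69, adjusted p = 1.18e-05. PrE against E3.5 gave 2 higher and 3 lower of 20, close to the 14.8% and 16.9% of all genes. The 6 of 21 with a more negative MUT difference at E4.5 than at E3.5 included Cct2 (-1.21, adjusted p = 0.00186) and Cct6a (-0.89, adjusted p = 0.00739). Of the 10 autoregulation genes, TTC5 and subunits of the CCR4-NOT deadenylase, edgeR called 0 in MUT against E3.5 WT/HET, EPI or PrE, with 0, 2 and 0 at an unadjusted p under 0.05, and DESeq2 called 1, against EPI. Ttc5 was higher than at E3.5 in EPI (2.34, adjusted p = 1.82e-05) and PrE (1.36, adjusted p = 0.0236), while 3 of the 10 genes were lower in each (all genes 16.4% and 16.9%), Cnot7 (-1.55, adjusted p = 0.000117 in EPI and -1.06, adjusted p = 0.0156 in PrE) among them.

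For the gamma-tubulin ring complex, which nucleates microtubules, edgeR called 0 of 9 genes in MUT against E3.5 WT/HET, EPI or PrE, with 1, 0 and 0 at an unadjusted p under 0.05, and DESeq2 called 1, at E3.5. In the stage comparisons 2 of 9, Tubgcp5 and Nedd1, were called lower in PrE than at E3.5 (-2.52, adjusted p = 0.0242 and -0.70, adjusted p = 0.0296), beside 16.9% of all genes. Of the destabilising and severing genes, 2 of 11 were lower in E3.5 MUT, beside 2.98% of all genes. They were Spast, which encodes the severing enzyme spastin (-0.91, adjusted p = 0.0348), and Stmn1, whose product stathmin binds free dimers (-1.05, adjusted p = 0.0380). Stmn1 was higher than at E3.5 in EPI (2.96, adjusted p = 3.26e-05) and PrE (1.72, adjusted p = 8.84e-05). In EPI 3 of 11 of these genes were called higher and 2 lower than at E3.5, and in PrE 1 of 10 higher and 4 lower (all genes 15.5% and 16.4% in EPI, 14.8% and 16.9% in PrE). Of stabilising and plus-end genes, 5 of 21 rose in EPI and 6 of 19 in PrE, where 1 fell, beside 15.5% and 14.8% of all genes called higher. Camsap3, a minus-end binding protein of epithelia, was at 5.04, adjusted p = 6.08e-07 in PrE against E3.5 and at -3.34, adjusted p = 0.0131 in E4.5 MUT against PrE. Map1b, a neuronal microtubule-associated protein, was higher in EPI than in PrE (5.68, adjusted p = 0.0158). Of 13 modifying enzymes edgeR called 0 in each of the same MUT comparisons, with 2 at an unadjusted p under 0.05 in each, and DESeq2 called 0, 2 and 2. Svbp, the partner of the detyrosinating vasohibins, was higher in EPI (1.83, adjusted p = 3.50e-05) and PrE (1.09, adjusted p = 0.0434) than at E3.5, and the counts of such genes, 2 of 13 and 2 of 12 higher with 1 lower in each, were near the 15.5% and 14.8% of all genes called higher.

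Of all genes with a mean of at least 20 CPM, the one whose log2 CPM followed a tubulin most closely over the 25 sums was named for each. Tuba1b and Mif had a Pearson correlation of 0.982 and Tubb5 and Ppa1 one of 0.937. The others lay between 0.811 and 0.878: Gsr for Tuba4a, Dennd2c for Tubb4b, Rras2 for Tuba1c, Enox1 for Tubb3, Ppp1r7 for Tubb2a, Ak1 for Tuba1a, Fdps for Tubb6 and Ap1m1 for Tubb2b. The 25 points share stage, plate and lineage within groups, so the values are descriptions over those groups and carry no p.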

How the data were processed

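Single ICM cells of mouse blastocysts were profiled by Smart-seq2. The authors aligned 125-base read pairs to GRCm38 with STAR and counted them per gene of Ensembl release 87 with HTSeq, and deposited unnormalised counts per gene and cell (172 cells, 49671 genes). The strand setting of the counting is not given in the sources used here. Of all read pairs 32.3% were multi-mapped, 8.65% ambiguous between genes and 4.72% outside genes, and none of these is in the counts. Symbols, coordinates and exon lengths came from GENCODE M21 (GRCm38). Some sequences are not reported here.

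Genotype, stage and lineage came from the labels, and embryo and plate from the study's table of cells, matched on cell titles. Counts were summed per embryo and lineage, so the p-values measure the spread between embryos. Cells held 363819 to 4644070 counts. edgeR 4.0.16 under R 4.3.3 was used for the tests. Genes were kept by filterByExpr, sums were scaled by TMM, and quasi-likelihood F tests were adjusted by Benjamini-Hochberg over all genes kept (prior count 2). A gene was called at an adjusted p under 0.05. Scripts were tested on simulated data, where the E3.5 MUT, E4.5 MUT against EPI and EPI against PrE fits missed most of the smaller changes. The E4.5 MUT against EPI fit also missed most of the larger changes, and the EPI against PrE fit missed many of them. In E4.5 MUT against EPI the share of false calls was above the threshold. Isotype shares were computed from CPM per kb and, like shares of cells, were not tested. The members and the gene lists were chosen with earlier results of these data known. Genes named were the 10 members, the other tubulins, Pou5f1 and the gene most like each member over the 25 sums. From each list they were taken from the 2 called genes with the smallest adjusted p in each direction. Not all of those list genes are named.

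EPI and PrE sums came from the same 6 embryos, which pairs them. After removal of the lineage means the sums of an embryo correlated at 0.0456, 0.0300, 0.0163, 0.0343, 0.00887 and 0.0385 (embryos 1, 2, 4, 5, 6 and 7), and the embryo as a block was an alternative. Other alternatives were DESeq2 1.42.0, its size factors in edgeR, no filter on low counts, all 5 groups in 1 fit, limma-trend (limma 3.58.1) with equal weight for each cell's log2 CPM, WT embryos as the only controls, 9 shallow cells left out, each embryo left out, other lengths for the mix, and other detection thresholds. A lone MUT embryo in such a fit is taken to vary as the controls do.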

Additional observations from a re-analysis of the deposited data

Results flagged for a closer look

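Dixon's test for the sample farthest from the others of its group marked 7 of 39 gene and group combinations of 4 to 10 embryo sums, where chance marks about 1 in 20. That rate cannot be applied to groups in which nearly every sum was at 0. MUT embryo 10 at E3.5 stood below the other MUT embryos for Tuba1c (129.9 CPM) and for Tubb4b (181 CPM). It was also the lowest for every other isotype tested at E3.5, and for the sums of EPI markers (571 CPM) and mitosis genes (3200 CPM). Its sum of PrE markers (610 CPM) was the highest of the MUT embryos at E3.5. Its sum of TE markers (1299 CPM) lay within their range. HET embryo 15 at E3.5 stood above the other WT/HET embryos for Tubb2a (135 CPM) and for Tubb2b (0.998 CPM), where 5 of 7 sums were at 0. Tubb3 was marked in 3 groups where nearly every sum was at 0, in E3.5 WT/HET embryo 18 (1.57 CPM), in E3.5 MUT embryo 12 (0.151 CPM) and in PrE of embryo 7 (0.133 CPM). No call at E3.5 depended on MUT embryo 10 or on HET embryo 15. The effect of OCT4 loss differed between stages for Tuba1c (interaction log2 fold change -2.20, adjusted p = 0.00794) and Tubb4b (-2.99, adjusted p = 0.000215) by edgeR's quasi-likelihood test. Both genes overlapped between MUT and control embryos at E3.5 and lay below every control sum at E4.5. Stage and plate cannot be told apart in this difference.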

How the results depend on the processing

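With the embryo as a replicate block, which pairs EPI and PrE, 3 members were called between the lineages, as without it, and 840 instead of 958 of all genes. With WT embryos as the only controls the number of members called was 1 in E3.5 MUT against WT/HET, 1 in E4.5 MUT against EPI, 0 in E4.5 MUT against PrE, 0 in EPI against PrE and 1 in the interaction. With all 5 groups in 1 fit it was 5 in EPI against PrE, and with DESeq2 or equal weights of cells 4 in the interaction. Leaving out single embryos gave 3 to 7 members in E4.5 MUT against EPI and 1 to 4 in the interaction. Of 127 counts of members called under an alternative 116 were within 1.5 times the reported count. Of the log2 fold changes of single members 1083 kept direction and side of the threshold, 40 lost a call, 20 gained one and 20 reversed.

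The reversals were all of changes that were not called. In E4.5 MUT against PrE they were Tuba1a at -0.49 with cells weighted equally (-0.0116 to 1.22 with single embryos left out) and Tuba4a at 0.28 with WT controls. In EPI against PrE they were Tubb2a at -0.21 and Tubb2b at -1.23 with WT embryos alone. In EPI against E3.5 they were Tubb4b at -0.0039 with all groups in 1 fit, -0.13 with WT embryos, -0.0018 without shallow cells and -0.0370 to 0.0685 with single embryos left out, and Tubb6 at -0.13 with equal weights (-0.0087 to 0.62 with embryos left out). Tubb2a in PrE against E3.5 was -0.22 with equal weights. In the interaction Tuba1a was 0.36 with WT controls (-1.05 to 0.25 with embryos left out) and Tuba4a -0.32 with equal weights. The cause was not tested.

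The isotype mix moved with the length used. Without division by length Tuba1b was 18.01% in E3.5 WT/HET, 16.5% in E3.5 MUT and 52.4% in PrE, and Tubb5 was 37.4, 14.4, 58.8, 64.8 and 56.5% in E3.5 WT/HET, E3.5 MUT, EPI, PrE and E4.5 MUT. With the length of unshared windows Tuba1b was 32.4% in E3.5 WT/HET, 25.9% in E3.5 MUT, 68.8% in EPI and 62.97% in PrE, and Tubb5 was 21.8% in E3.5 WT/HET, 40.1% in EPI, 47.6% in PrE and 39.6% in E4.5 MUT. With WT embryos alone Tubb5 was 51.9% in EPI and 59.1% in PrE.

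Equal weights moved the median log2 fold change of all genes to -0.23 in E3.5 MUT, to -0.20 and -0.24 in E4.5 MUT against EPI and PrE, to -0.63 in EPI and to -0.62 in PrE against E3.5, and its split of calls was 425 higher and 928 lower in E3.5 MUT, against 386 and 360. Calls over all genes were 746 in E3.5 MUT (1607 with DESeq2, 193 with all groups in 1 fit, 1353 with equal weights, 435 with WT controls), 637 in E4.5 MUT against EPI (1711, 1631, 1479 and 48), 466 against PrE (1223, 1366, 1097 and 27) and 958 in EPI against PrE (1447, 2467, 1824 and 3). They were 3557 in EPI against E3.5 (5793 with equal weights), 3420 in PrE (5191) and 896 in the interaction (1850 with DESeq2, 1445 with equal weights, 470 with WT controls). A count of 0 in a sum allows up to 3 counts, which bounds Tubb2b and Tubb3 in most E3.5 sums (8539537 to 17453036 counts in WT/HET).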

Other observations

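Of 10 further tubulin genes, Tuba3a was the alpha gene seen mostly in EPI. It ran from 19.05 to 217 CPM in the 6 EPI sums, from 0 to 9.65 in E3.5 WT/HET, from 0.727 to 28.5 in E3.5 MUT and from 0 to 21.7 CPM in PrE, with 0 counts in both E4.5 MUT embryos. It was called higher in EPI than at E3.5 (log2 fold change 4.29 ± 0.82 SE, adjusted p = 0.000887, edgeR) and lower in E4.5 MUT than in EPI (adjusted p = 0.00838), and not between EPI and PrE (adjusted p = 0.0516). Its near copy Tuba3b had at most 18.5 CPM in any sum, and how the counting split reads between them is uncertain. Tubal3, Tubb1 and Tubb4a had 0 counts in every cell, and Tuba8 and Tubg2 reached at most 3.20 CPM. Tubg1, the gamma-tubulin gene in use, lay between 37.7 and 191.6 CPM in all 25 sums and was called once, higher in PrE than at E3.5 (log2 fold change 0.81 ± 0.24 SE, adjusted p = 0.0168). Tube1, epsilon-tubulin of the centriole, was 44.2 and 53.9 CPM in E4.5 MUT embryos and was called higher in EPI than at E3.5 (log2 fold change 2.15 ± 0.59 SE, adjusted p = 0.0119). Tubd1, delta-tubulin, lay between 0 and 34.3 CPM and was not called.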
